A study of Rattus norvegicus with 4 samples.

Results

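The genes of translation initiation factors were described in NR8383 cells, an established rat macrophage line that was started from cells washed out of the lung. They were taken as all gene probes whose accession matched a rat RefSeq symbol beginning with Eif1 to Eif6, the Eif2ak kinases included. This gave 68 probes for 48 genes, out of 45598 gene probes on the array and 16526 genes that could be named. All cells were labelled as having gone through 20 passages and had received zinc iron oxide (ZnFe2O4, NRCWE021) at 17 µg/mL, with RNA taken after 4 h. The 4 biological replicates were each hybridised to a 1-colour array. The series also describes unexposed cells, whose arrays were not analysed here, so the values below describe exposed cells alone and carry no test between groups.

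Translation initiation brings the ribosome, the initiator tRNA and the mRNA together. The factor eIF2 carries the initiator tRNA, eIF2B reloads eIF2 with GTP, and eIF3 is a large scaffold on the small ribosomal subunit. The eIF4 factors bind the cap of the mRNA and unwind its leader, and eIF1, eIF1A, eIF5 and eIF5B take part in start codon choice and in joining of the large subunit. In stressed cells the Eif2ak kinases phosphorylate eIF2, which lowers general initiation and favours mRNAs such as that of Atf4. The inhibitory proteins of the Eif4ebp genes hold back the cap-binding protein eIF4E until the kinase mTOR releases them.

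Nearly all initiation factor genes were detected. A gene counted as detected on an array when the scanner software marked any of its probes as well above background. On all 4 arrays 45 of the 48 genes met this, where 42.4% of all named genes did. On replicates 1 and 4 together 46 did, where the share of all named genes was 45.9%. The exceptions on all 4 arrays were Eif2s3y, Eif5a2 and Eif4enif1. Eif2s3y, the Y-linked copy of the eIF2 gamma subunit gene, and Eif5a2, the second eIF5A gene, both missed detection on replicate 4. Eif4enif1, which encodes a shuttle protein that binds eIF4E, was detected on replicates 1 and 4 at signals of 158 and 106 intensity units. On replicates 2 and 3 it read 86.3 and 49.3 and missed detection. By array, the flag found 47 of the 48 genes on replicate 1, beside 52.2% of all named genes. It found 46 on each other array, beside 91.5%, 75.3% and 46.2% of all named genes on replicates 2, 3 and 4. With a weaker flag, for signal that is positive and significant, 47 of the 48 genes passed on all 4 arrays, beside 59.8% of all named genes.

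The arrays differed in their dim signal, which bears on every value below. The flag marked between 41.6% and 47.0% of gene spots on replicates 1 and 4, and between 70.5% and 89.5% on replicates 2 and 3. Of 10 probes for spike-in RNAs, which do not come from the cells, the dimmest read 3.72 and 3.92 intensity units on replicates 1 and 4 but 526 and 112 on replicates 2 and 3. The threshold set 3 SD of its spots above it lay at 7.34, 1070.1, 238 and 8.38 units on replicates 1 to 4. By this threshold 24 of the 48 genes passed on all 4 arrays, where 18.9% of all named genes did. A further 17 passed on replicates 1 and 4 alone. By array, 47, 25, 28 and 46 of the genes passed on replicates 1 to 4, beside 63.4%, 24.3%, 32.8% and 53.5% of all named genes. Signals under the threshold on replicates 2 and 3 cannot be told apart from that dim end. Of the macrophage markers, 9 of 11 were well above background on replicates 1 and 4, against 0 of 5 epithelial, 0 of 4 fibroblast, 0 of 4 T cell, 0 of 2 B cell and 1 of 3 endothelial markers.

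**Figure D1:**
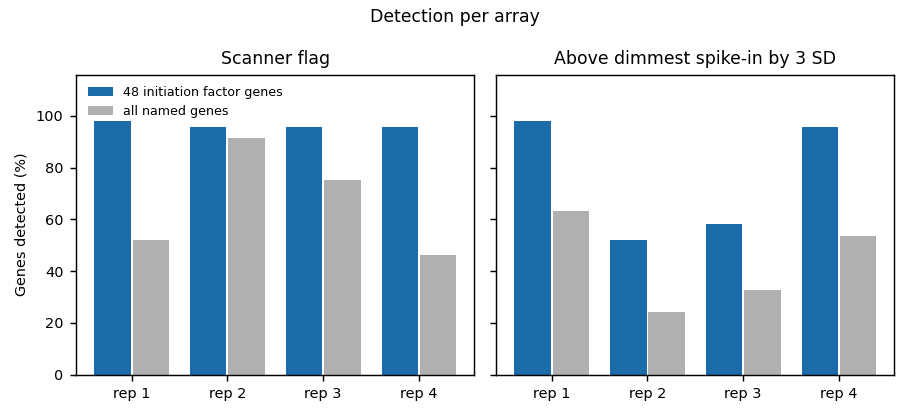
Percentage of genes detected on each array (vertical axis, from 0), for the 48 initiation factor genes (blue) and for all 16526 named genes (grey). On the left a gene counts by the scanner's flag, and on the right by a signal 3 SD above the dimmest spike-in; the flag finds 46 or 47 of the 48 genes on each array, while the spike-in threshold finds 47, 25, 28 and 46 on replicates 1 to 4.

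Both the eIF5A and the eIF2 gamma genes form a pair of copies that was split by detection, and their upstream sequences are shown for that reason. Promoter windows were found in the RefSeq table of the GRCr8 assembly for 43 of the 48 genes, here cut to the 250 bases before the annotated start. The 4 windows below are written 5′ to 3′ on the strand of the gene, with each CG dinucleotide in capitals. Eif5a (chr10:55143222-55143471, minus strand) was detected on all 4 arrays and Eif5a2 (chr2:113657584-113657833, plus strand) on replicate 1 alone. Eif2s3 (chrX:62933700-62933949, minus strand) was detected on all 4 arrays and Eif2s3y (chrY:944403-944652, plus strand) on replicates 2 and 3.
Eif5a: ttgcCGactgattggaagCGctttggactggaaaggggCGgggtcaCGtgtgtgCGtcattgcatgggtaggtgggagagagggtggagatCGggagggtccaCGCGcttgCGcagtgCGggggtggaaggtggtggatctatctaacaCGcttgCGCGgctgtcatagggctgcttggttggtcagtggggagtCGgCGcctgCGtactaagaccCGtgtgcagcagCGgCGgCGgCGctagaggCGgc
Eif5a2: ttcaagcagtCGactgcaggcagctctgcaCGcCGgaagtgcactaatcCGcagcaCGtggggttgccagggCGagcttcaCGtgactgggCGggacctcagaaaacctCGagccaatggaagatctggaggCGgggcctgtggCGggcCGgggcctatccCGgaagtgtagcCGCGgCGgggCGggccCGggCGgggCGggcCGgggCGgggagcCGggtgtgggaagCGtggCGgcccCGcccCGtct
Eif2s3: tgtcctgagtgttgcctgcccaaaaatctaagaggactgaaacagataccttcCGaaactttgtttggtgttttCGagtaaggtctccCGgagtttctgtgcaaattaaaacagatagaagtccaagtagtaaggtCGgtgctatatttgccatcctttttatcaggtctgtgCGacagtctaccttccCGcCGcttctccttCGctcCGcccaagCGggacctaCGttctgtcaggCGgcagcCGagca
Eif2s3y: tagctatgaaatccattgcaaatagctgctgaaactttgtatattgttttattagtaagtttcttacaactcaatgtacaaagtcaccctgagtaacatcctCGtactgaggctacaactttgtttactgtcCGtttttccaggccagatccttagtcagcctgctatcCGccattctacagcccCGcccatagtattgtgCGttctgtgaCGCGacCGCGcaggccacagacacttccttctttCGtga

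The Eif5a window held 22 CG dinucleotides and that of Eif5a2 held 27, so the copy detected on replicate 1 alone had the window with more CG. The windows of Eif2s3 and Eif2s3y held 13 and 10. Over the 43 genes the median count was 19, beside 5 over all 33469 windows in the table, and the range was 2 to 42. The letters GGGCGG, a binding site of SP1, were present on either strand in 28 of 43 windows and in 30.5% of all windows. CCGGAAG, the core read by ETS factors, was in 16 of 43 windows and in 7.27% of all. CCAAT was in 11 of 43 windows and in 11385 of all 33469, and TATAAA was in 2 of 43, those of Eif2s1 and Eif4a2, and in 12.9% of all. All were counted on both strands, matches of different motifs may share bases, and GGGCGG and CCGGAAG themselves hold a CG. A match describes the sequence and is not a measured site.

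Levels were read from the processed signal of the brightest probe of each gene. Beside the signals, a level is given as the log2 signal relative to the 75th percentile of its array, as mean ± SD over n = 4 arrays. The median level of the 48 genes was 2.09, beside -1.43 for all named genes. The median SD was 1.74 for the 48 genes and 1.53 for all named genes. Most of that SD was an offset in level shared by the genes of an array. The median difference in level, replicate 1 minus replicate 2, was 3.00 over the 6904 genes whose brightest probe was detected on all 4 arrays. With scaling on detected probes alone, the median SD was 0.41 for the 44 such initiation factor genes and 0.43 for all such genes. By level, 46 of the 48 genes were higher on both replicates 1 and 4 than on both replicates 2 and 3, the exceptions being Eif2s3y and Eif5a2. Among all detected genes 88.0% had that order, so it is no property of these genes. The offset of 3.00 lies in the scaled levels. Signals compared between arrays below are unscaled and not adjusted for the brightness of an array. Signals of different probes are not ranked against each other, since probes differ in how well they bind.

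**Figure D2:**
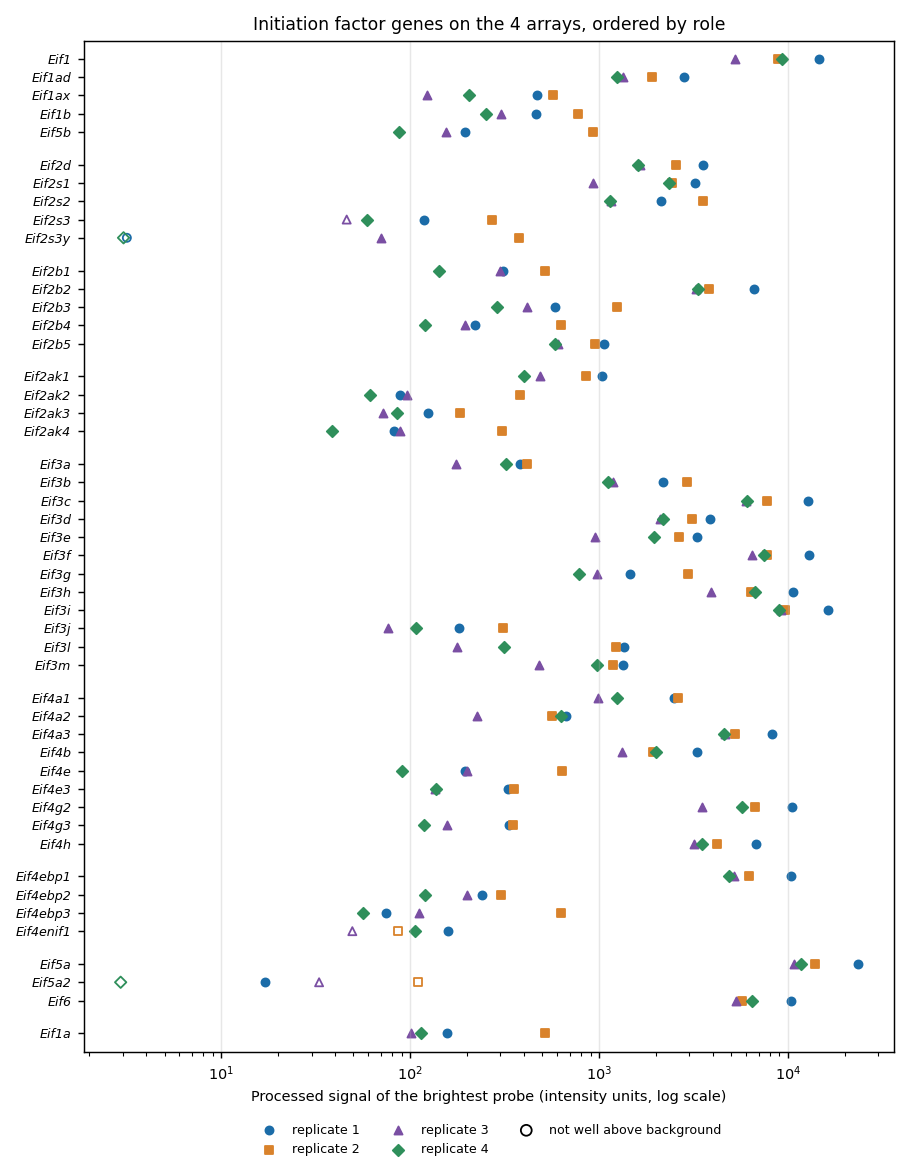
Processed signal of the brightest probe of each of the 48 genes on each array (horizontal axis, intensity units, log scale), with genes grouped by role and 1 symbol per replicate; open symbols were not well above background. Replicate 1 or replicate 2 gave the highest unscaled signal for each gene, 24 genes each. Of the 24 genes that passed the spike-in threshold on all arrays, 19 were highest on replicate 1. The open symbols belong to Eif2s3, Eif2s3y, Eif4enif1 and Eif5a2.

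On the list of start site selection and subunit joining, all 5 measured genes were detected on all 4 arrays, where 42.4% of all named genes were. Eif5, also listed, had no named probe. Eif1, which guards the accuracy of start codon choice, had signals of 14515, 8828, 5206 and 9311 intensity units on replicates 1 to 4, a level of 5.75 ± 2.11. Its level was 7.35 and 7.69 on replicates 1 and 4 and 3.38 and 4.57 on replicates 2 and 3. Among all detected genes 88.0% were likewise higher on both replicates 1 and 4 than on both replicates 2 and 3. Eif1ax, the X-linked gene of eIF1A, had signals of 467, 566, 123 and 204, a level of 0.79 ± 1.74. Its values on replicates 2 and 3 lay under the spike-in threshold. Eif1b and Eif5b were detected on all arrays at levels of 1.29 ± 1.34 and 0.43 ± 0.76, and Eif1ad at 3.39 ± 1.84. Eif1a, a further eIF1A gene that stood outside the role lists, had signals of 157, 514, 101 and 114, of which those on replicates 2 and 3 lay under the spike-in threshold.

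The subunits of eIF2 were detected, apart from the Y-linked copy. Eif2s1, the alpha subunit that the stress kinases phosphorylate, had signals of 3225, 2440, 924 and 2355, a level of 3.62 ± 2.13. Its level was highest on replicate 4, at 5.70, and lowest on replicate 2, at 1.52. Its signal was highest on replicate 1 and lowest on replicate 3. Eif2s2, the beta subunit, had signals of 2134, 3540, 1150 and 1145, a level of 3.42 ± 1.39. By level replicates 2 and 3 were lowest, at 2.06 and 2.39, an order that 88.0% of all detected genes had. Its signal was highest on replicate 2. Eif2s3, the gamma subunit, had signals of 118, 271, 46.1 and 58.7 from its brightest probe, which missed detection on replicate 3, while its other probe was detected on every array. Eif2s3y had signals of 3.16 and 3.03 on replicates 1 and 4, not well above background, and of 375 and 70.1 on replicates 2 and 3, both under the spike-in threshold of their array. Eif2d, which can deliver initiator tRNA without eIF2, had signals of 3549, 2540, 1651 and 1598, a level of 3.74 ± 1.81.

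All 5 subunit genes of eIF2B, the exchange factor that phosphorylated eIF2 blocks, were detected on all 4 arrays. So were 42.4% of all named genes. Eif2b1 had signals of 308, 518, 299 and 142 on replicates 1 to 4, a level of 0.79 ± 1.18. Eif2b2 had signals of 6569, 3790, 3262 and 3317, a level of 4.61 ± 1.97. By level both were lowest on replicate 2, at -0.72 and 2.16. Levels on replicate 2 hold the offset shared by the genes of that array. The signal of Eif2b1 was highest on replicate 2. There it lay under the spike-in threshold of 1070.1 units and under the dimmest spike-in, at 526, so it cannot be told apart from the dim end. Eif2b3, Eif2b4 and Eif2b5 had levels of 1.71 ± 1.14, 0.53 ± 0.97 and 2.22 ± 1.72. The spike-in threshold was passed on all arrays by Eif2b2 and Eif2b3, where 18.9% of all named genes passed it.

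All 4 kinases of eIF2 alpha were detected on all 4 arrays by the flag, where 42.4% of all named genes were. The spike-in threshold was passed on all arrays by 0 of the 4, where 18.9% of all named genes passed it. Eif2ak1, the kinase that senses low haem (HRI), had signals of 1037, 852, 485 and 398, a level of 1.96 ± 1.67. It passed the spike-in threshold on replicates 1, 3 and 4. Eif2ak2, the kinase that senses double-stranded RNA (PKR), had signals of 88.1, 380.2, 95.8 and 60.8, a level of -0.49 ± 0.82. Eif2ak3, the kinase of the endoplasmic reticulum (PERK), had signals of 125, 184, 71.3 and 85.3, a level of -0.61 ± 1.54. Eif2ak4, the kinase that senses amino acid shortage (GCN2), had signals of 81.7, 306, 88.7 and 38.3, a level of -0.79 ± 0.71. For the last 3 kinases the values on replicates 2 and 3 lay under the spike-in threshold.

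All 12 measured subunit genes of eIF3 were detected on all 4 arrays, and 9 of them passed the spike-in threshold on all arrays. Of all named genes, 42.4% and 18.9% did so. Eif3a, the largest subunit, had signals of 379, 414, 175 and 321, a level of 0.89 ± 1.86. Eif3b, a core subunit, had signals of 2190, 2932, 1181 and 1120, a level of 3.37 ± 1.48. Eif3l had signals of 1353, 1230, 176 and 313, which are levels of 3.93, 0.53, -0.32 and 2.79. Eif3j, a loosely bound subunit, had a level of -0.18 ± 1.53, and Eif3i had one of 6.01 ± 1.96. Eif3c, Eif3f and Eif3h had levels of 5.54 ± 1.93, 5.65 ± 2.00 and 5.29 ± 2.10.

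By the flag, 9 of 9 measured genes of eIF4 factors were detected on all 4 arrays, where 42.4% of all named genes were. The spike-in threshold was passed on all arrays by 5 of the 9, where 18.9% of all named genes passed it. Eif4e, Eif4e3, Eif4g3 and Eif4a2 lay under it on replicates 2 and 3. Eif4e, the cap-binding protein, had signals of 194, 639, 199.6 and 90.8 from its brightest probe, a level of 0.40 ± 0.79. Eif4e3, a related cap-binding gene, had signals of 330.2, 355, 135 and 137, a level of 0.38 ± 1.60. Eif4g3, a scaffold that joins cap and helicase, had signals of 332, 348, 156 and 118, a level of 0.38 ± 1.52. Of the helicase genes, Eif4a2 had signals of 664, 565, 226 and 624, a level of 1.54 ± 2.14. By level replicates 2 and 3 were lowest, at -0.59 and 0.04, an order that 88.0% of all detected genes had. Eif4a1 and Eif4a3, the latter part of the exon junction complex, had levels of 3.35 ± 1.69 and 5.05 ± 1.93. Eif4b, which helps the helicase, had signals of 3283, 1929.7, 1326 and 1987, a level of 3.61 ± 2.07. Eif4g2, a related scaffold that does not bind eIF4E, had a level of 5.21 ± 2.03, and Eif4h one of 4.67 ± 1.95.

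The inhibitors of eIF4E were detected on all 4 arrays for each of the 3 genes, where 42.4% of all named genes were. Eif4ebp1, the main target of mTOR among them, had signals of 10365, 6243, 5185 and 4893, a level of 5.27 ± 1.92. It was above the spike-in threshold on all 4 arrays. Eif4ebp2 had signals of 239, 302, 199 and 120.0, a level of 0.30 ± 1.40. Eif4ebp3 had signals of 74.6, 631, 111 and 56.1, a level of -0.34 ± 0.53. Its signal on replicate 2 lay under the threshold of that array. Eif4ebp2 and Eif4ebp3 passed the spike-in threshold on replicates 1 and 4 alone.

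Of the genes outside these complexes, Eif5a, which carries the amino acid hypusine and helps peptide bond formation, had signals of 23315, 13806, 10803 and 11633, a level of 6.42 ± 1.96. Eif5a2 had signals of 17.0, 109.7, 32.9 and 2.93 from its brightest probe, which was well above background on replicate 1 alone, and its other probe was on no array. Eif6, which keeps the ribosomal subunits apart, had a level of 5.34 ± 2.07.

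For genes read by several probes, the probes did not always give the same picture. Several probes were present for 18 of the 48 genes. In 4 of the 18, detection on replicates 1 and 4 differed between the probes, as it did for 24.9% of all genes with several probes. These were Eif2ak2, Eif2ak3, Eif2d and Eif4b. The second Eif2ak2 probe read 41.7, 168, 16.8 and 13.9 and was not well above background on replicates 3 and 4. The second probe of Eif2ak3, designed on a predicted transcript, read 3.30, 205, 11.5 and 2.93 and was well above background on replicate 2 alone. The predicted-transcript probe of Eif2d read 7.81, 340.5, 11.7 and 5.80, with the same pattern of detection. On replicate 2 both predicted-transcript probes lay under the dimmest spike-in of that array, at 526. The second Eif4b probe read 58.1, 530.5, 129 and 22.7 and was not well above background on replicate 4. For Eif4e the second probe read 114, 348, 11.7 and 96.4 and missed detection on replicate 3, where the brighter one was detected.

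**Figure D3:**
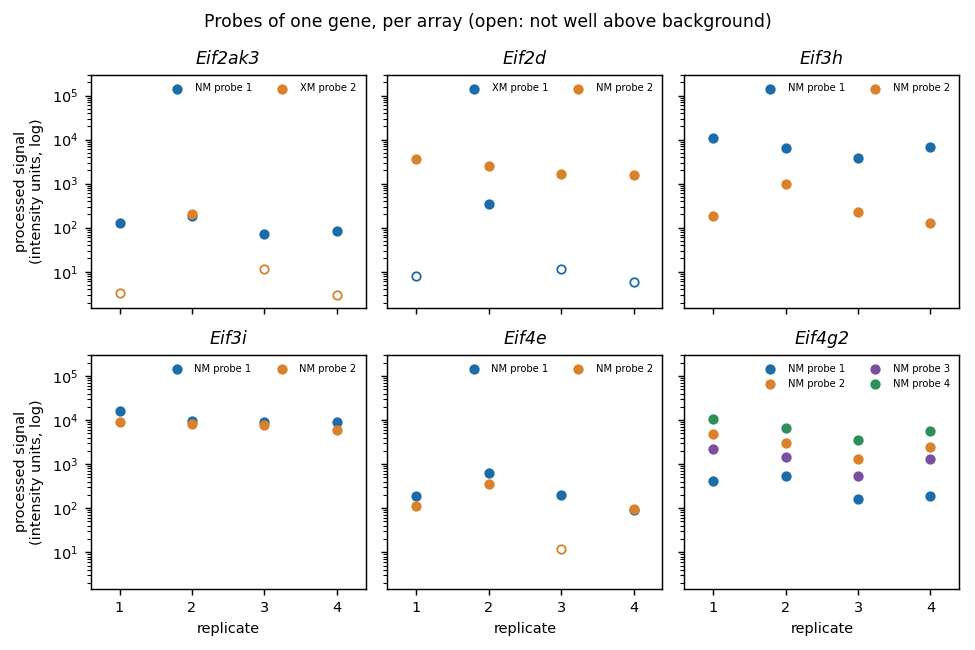
Processed signal of each probe (vertical axis, intensity units, log scale) on replicates 1 to 4 for 6 genes with several probes; NM and XM mark known and predicted transcripts, and open circles were not well above background. The XM probes of Eif2ak3 and Eif2d read 205 and 340.5 on replicate 2, under the dimmest spike-in there, at 526. On the other arrays they read at most 11.7.

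The precision of a signal within an array could be read from 17 probes of 15 genes that were spotted 10 times. The median SD of their repeated spots was 0.08, 0.07, 0.12 and 0.17 log2 units on replicates 1 to 4. Both Eif1 probes were of this kind, and on replicate 1 they read 11504 ± 546 (SD, n = 9 spots) and 14541 ± 875 (SD, n = 10 spots). Spots of 1 array are technical repeats and say nothing of the spread between cultures.

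Between replicates 1 and 4, the arrays with the lower dim signal, most initiation factor genes lay within 0.5 log2 units of the shift common to all genes. The difference was taken relative to the median difference of the 6904 detected genes, so that an offset of the array drops out. The median size of this difference was 0.18 log2 units for the 44 initiation factor genes detected with their brightest probe on all arrays, and 0.20 for all detected genes. It went past 0.5 in either direction for 8 of the 44, where 13.1% of all detected genes did. Eif3l was higher on replicate 1 by 1.15, the 1 gene of the 44 past 1, where 0.797% of all detected genes were. Eif4g3 was higher there by 0.53. Eif4a2, Eif3a and Eif4ebp3 were lower on replicate 1, at -0.87, -0.72 and -0.55. With 1 array on each side these values have no test.

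Between replicates 3 and 4 a set of the genes stood lower, a contrast chosen after its values were seen. Relative to the median of all detected genes, 8 of the 44 were lower on replicate 3 by more than 1 log2 unit, where 6.07% of all detected genes were. By contrast, 0 of the 44 were higher by more than 1, where 21.5% of all detected genes were. The 8 were Eif4a2 at -1.71, Eif2s1 at -1.60, Eif3e at -1.29, Eif3m at -1.27, Eif3a at -1.12, Eif1 at -1.09, Eif3l at -1.08 and Eif3h at -1.03. Thus 5 of the 12 measured eIF3 subunits were among them, while Eif3b, Eif3c, Eif3d, Eif3f, Eif3g and Eif3i lay between -0.46 and 0.07. Eif3j lay at -0.75 by its brightest probe and at 0.80 by its second, both under the spike-in threshold on replicate 3. Outside the 8, Eif4g2 lay at -0.95 by its brightest probe and at -1.13, -1.48 and -0.42 by its others. Among genes above the spike-in threshold on all arrays, 5 of 24 initiation factor genes were lower by more than 1 on the same reference, where 5.97% of 2897 such genes were. The 5 were Eif1, Eif2s1, Eif3e, Eif3h and Eif3m. With the median taken over those 2897 genes instead, Eif2s1, Eif3e and Eif3m remained, 3 of 24 where 3.21% of the genes were, and Eif1 and Eif3h stood at -0.89 and -0.83. The difference was shared by the second probe of Eif1, at -0.98, and of Eif3e, at -1.502. It was not shared by the second probe of Eif3h, at 0.59, which read 228 on replicate 3 and 128 on replicate 4, or by that of Eif4a2, at -0.06, which read 87.8 and 77.2. Both lay under the spike-in threshold on replicate 3, and so did the second probe of Eif3e, at 127, and the brightest probes of Eif4a2, Eif3a and Eif3l, at 226, 175 and 176. The part of the raised dim signal in these differences was not tested.

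**Figure D4:**
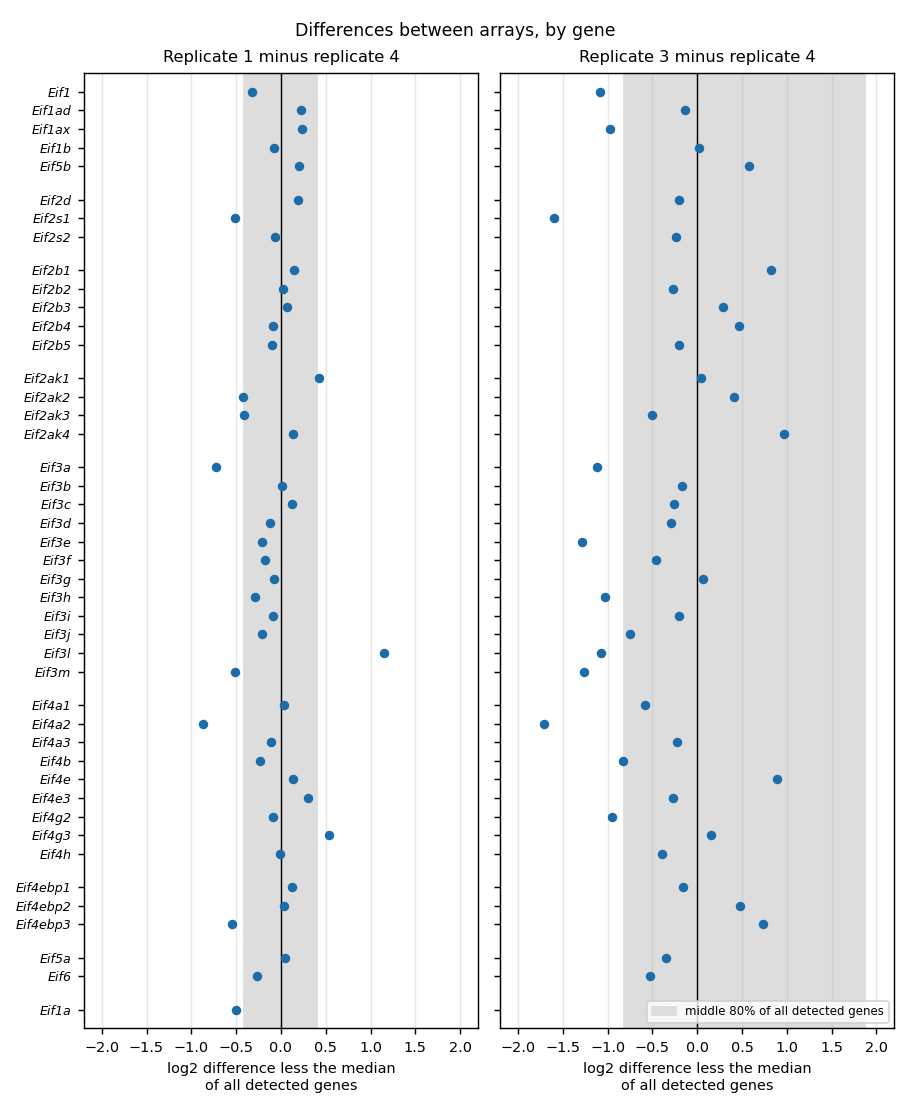
Differences between single arrays for the 44 genes whose brightest probe was detected on all 4 arrays (horizontal axis, log2 difference less the median of all 6904 detected genes), with genes grouped by role and the middle 80% of all detected genes shaded. Replicates 1 and 4 differed little apart from genes such as Eif3l at 1.15 and Eif4a2 at -0.87, while on replicate 3 the genes Eif4a2 and Eif2s1 lay at -1.71 and -1.60.

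Most listed genes that act on initiation or follow it were detected too. Of 35 listed, 31 were measured. By the flag 29 were found on every array, where 42.4% of all named genes were. When replicates 1 and 4 alone were asked 31 were found, where the share of all named genes was 45.9%. The spike-in threshold was passed on all arrays by 22, where 18.9% of all named genes passed it. The genes that missed detection on replicate 3 were Paip1 and Abce1, the latter named after its values were seen. Mtor, the kinase that releases eIF4E, had signals of 61.0, 469, 134 and 25.1, of which those on replicates 2 and 3 lay under the spike-in threshold. Rptor, its partner in mTORC1, had 1438, 1555, 939 and 661. Ppp1r15a and Ppp1r15b, the subunits that direct the phosphatase to eIF2 alpha, had levels of 3.86 ± 1.64 and 1.23 ± 1.46. Pabpc1, the poly(A)-binding protein that contacts the eIF4 scaffold, had a level of 5.87 ± 1.91, and Paip1, which binds it, one of -1.28 ± 0.97. On replicates 2 and 3 the signals of Ppp1r15b and Paip1 lay under the spike-in threshold too. The elongation factor genes Eef1a1 and Eef1b2 had levels of 7.90 ± 1.89 and 6.57 ± 1.85. Dhps and Dohh, the enzymes that make hypusine on eIF5A, had levels of 2.13 ± 1.42 and 5.63 ± 1.89.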

How the data were processed

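RNA of 4 exposed cultures was read on 4 arrays. The authors deposited scanner intensity values, background-subtracted and spatially detrended by Agilent Feature Extraction 11.0.1.1, per the file headers, with no scaling between arrays. The deposited value table equals the median spot intensity on all 62976 spots of each array, with column medians of 54, 604.5, 219 and 46 for replicates 1 to 4, so it is linear and neither centred nor scaled. Outlier spots were left out, spots of a probe were averaged as log2, and a probe counted as well above background when more than 0.5 of its kept spots did. Of all gene probes, 213 had no spot left on an array and were dropped, none of them an initiation factor probe. Probes were named by accession, without version, through the RefSeq table of GRCr8, which named 21109 of 45598. Of 53 genes in the role lists, 47 had a named probe. Normexp and quantile alternatives used limma 3.58.1. No test between groups was run and no sample was left out. A Dixon outlier check on the 4 values of each of the 48 genes flagged 0 genes, at a critical value of 0.829. The averaging and scaling were tested on simulated data with a constant log2 offset per array. Those data had no raised dim signal, so they could not test its effect on the scaling. The members, lists and rules were chosen with earlier results of these data known. Named with values are the first 2 measured genes of each role list, the eIF2 kinases, genes not detected on replicate 1 or 4, genes whose probes disagree, and the 5 of largest difference between replicates 1 and 4; other names were chosen after their values were seen. Of the other lists, the first 2 measured genes and those not detected on replicate 1 or 4 are named. The replicates are called biological in the series description. No saturated gene spot was found. The number of arrays limits the precision.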

Additional observations from a re-analysis of the deposited data

How the results depend on the processing

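By the flag, the count of genes detected on all 4 arrays was 45, and it was 46 on replicates 1 and 4, 47 with the flag for positive and significant signal and 44 with the brightest probe alone. Without each replicate in turn it ranged from 45 to 45. It was 24 with the spike-in threshold. The median level of 2.09 stayed within 1 SD of the array medians except under the settings that set the zero elsewhere. These were scaling on detected probes, at -0.74, and centring on the 3 brightest spike-in probes, at -3.77. That SD, 1.71, held the offset between arrays. With replicates 1 and 4 alone the median level was 3.50. Without each replicate it ranged from 1.60 to 2.76. The median SD of 1.74 became 0.43 with scaling on detected probes, 0.79 with quantile normalization, 0.78 with spike-in centring and 0.13 with replicates 1 and 4 alone, and without each replicate it ranged from 1.34 to 1.91. With the flag for positive and significant signal, 2 genes had probes that disagreed in place of 4; without each of replicates 1 and 4 the count ranged from 3 to 4. The count of 8 genes lower on replicate 3, an analysis added after seeing the data, was 14 with quantile normalization, 7 with normexp, 10 with the mean of all probes, 5 with only genes above the spike-in threshold, and 3 with that filter and the median taken over those genes. The cause of these shifts was not tested. Of the levels of the 25 genes chosen by rule, all 25 moved by more than 1 SD with scaling on detected probes and with spike-in centring. With the mean of all probes 5 did, with normexp 2 did, and under the other alternatives 0 did. The SD of a gene also held the offset between arrays, so shifts from leaving arrays out could hardly exceed it. Of the 25 levels, 23 were higher with replicates 1 and 4 alone, 23 without replicate 2 and 23 without replicate 3. Without replicate 1 and without replicate 4, 1 and 2 were higher. No paired analysis was possible because the data hold 1 group. Signal over background limits what can be said of dim genes on replicates 2 and 3.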
